A study of Mus musculus with 10 samples.

Results

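Solute carriers are the membrane proteins that move amino acids, sugars, lactate, metal ions, nucleotides and other small molecules into, out of and within cells. Of 363 genes whose symbol has the form of a solute carrier gene (Slc, a family number, a letter and a member number) in a table of 55401 genes, 166 were expressed in mouse forelimb-bud ectoderm and are described here. A gene was taken as expressed when its mean over the 3 wild-type or the 3 double-knockout libraries reached 5 CPM (counts scaled to a common library total). Slc22a18 and Slc2a1 were left out by name, and 195 genes were below that level, of which 57 had no count in any library. The members belonged to 43 families, the largest being the mitochondrial family Slc25 with 36 members and the Golgi family Slc35 with 21.

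The series studies the transcription factors Sp8 and Sp6 in the epithelium that covers the limb bud. At E9.75 (E for embryonic day), 3 samples were double knockouts (DKO) for Sp8 and Sp6, and the other 3 were their wild-type (WT) littermates. For each sample the ectoderm of about 2 forelimb buds was peeled off after 20 min in 0.25% trypsin. The promoter or Cre behind the deletions is not given in the sources used here, and the E10.5 libraries of the series (2 lacking Sp6 and 2 WT) were not analysed here. The DKO libraries and their controls go by the numbers of their columns: WT 32, WT 53, WT 56, DKO 17, DKO 40 and DKO 41. The labels tie no sample to an embryo or a litter, and the p-values therefore reflect only how these samples vary, which may be technical.

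Each library held between 64432348 and 87040786 counts. Sp8 averaged 36.2 CPM in WT and 3.68 CPM in DKO (edgeR adjusted p = 0.000806), whereas Sp6 was at 228 to 320 CPM in WT and ran from 13.9 CPM (DKO 40) through 76.9 (DKO 41) to 133 (DKO 17) in the knockouts. This gene was thus lower in all 3 DKO libraries, but it did not pass (log2 fold change -1.94, adjusted p = 0.207). The 13 ectoderm markers summed to 3807 to 4124 CPM in WT and 2259 to 3103 in DKO, so the labelled tissue was present in every library. The keratin Krt5 was at 254 to 363 CPM in WT and at 12.7, 8.09 and 64.9 CPM in DKO 17, DKO 40 and DKO 41. Its fall did not pass (log2 fold change -3.43, adjusted p = 0.0635). Of the 13 ectoderm markers, 3 passed as lower and 1 as higher. Those lower were Epcam (610 against 420 CPM in DKO, edgeR adjusted p = 0.0228), Perp (534 against 273, 0.0273) and Cdh1 (283 against 133, 0.0437). The marker that rose was another keratin, Krt8, whose log2 fold change was 0.47 (adjusted p = 0.0315). The 11 markers of the apical ectodermal ridge, the signalling rim of the bud, summed to 2049 to 2513 CPM in WT and 278 to 473 in DKO. Red cell markers, mostly globins, stood apart by library: 302 CPM in WT 53, 128 in DKO 40, 920 in DKO 41 and 27.5 or less in the others. The 12 mesenchyme markers summed to 393 to 441 CPM in WT and 238 to 526 in DKO, and Prrx1 was highest in WT 32 (29.0 CPM, with 1.61 in WT 53 and 0.412 in WT 56). Most of the WT sum came from Col1a2 and Pdgfra, and Pdgfra fell from 66.6 ± 28.6 to 7.66 ± 4.41 CPM (log2 fold change -3.13, adjusted p = 0.00696). Other markers of the list had higher means in DKO without passing: Prrx2 (35.1 against 107.5 CPM in DKO, adjusted p = 0.0906), Twist1 (6.44 against 29.5, 0.135) and Twist2 (3.41 against 35.2, 0.078). The 6 neural crest markers summed to 60.4 to 94.6 CPM in WT and 63.98 to 145 in DKO, highest in DKO 41. Of these Tfap2b (19.8 to 97.8 CPM) and Erbb3 (26.9 to 42.4) were the most abundant, Sox10 reached 12.5 CPM, and Foxd3 alone was at 0 in every library. The endothelial gene Cdh5 and the macrophage gene Adgre1 were at 0 throughout. The part of mesenchyme or neural crest in the results was not tested. In these bulk samples fewer cells of a kind and less RNA per cell cannot be told apart.

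A solute carrier binds its substrate on 1 side of a membrane and releases it on the other by changing shape, driven by the substrate's own gradient or by that of an ion moved with it. Families are grouped by sequence, so members of a family tend to carry related substrates but can sit in different membranes. Proliferating embryonic tissue takes up glucose and amino acids and releases lactate through carriers of this kind. Proliferation was not measured here.

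The promoters below belong to 5 members whose level passed the test between the groups, namely those with an entry in the reference table and at least 10 CPM in the higher group. They are shown because Sp factors are zinc finger proteins known for binding GC-rich boxes, here searched as GGGCGG on either strand (CCGCCC on the other), with matches in capitals. The sequences are from RefSeq on GRCm38.p6, 5′ to 3′ on the gene's own strand, and cover the 250 bases before the first annotated base. The windows are chr10:19851460-19851709 (minus strand) for Slc35d3, chr10:40142255-40142504 (minus) for Slc16a10, chr3:50443614-50443863 (minus) for Slc7a11, chr2:122702664-122702913 (minus) for Slc30a4 and chr4:53440163-53440412 (plus) for Slc44a1.
Slc35d3: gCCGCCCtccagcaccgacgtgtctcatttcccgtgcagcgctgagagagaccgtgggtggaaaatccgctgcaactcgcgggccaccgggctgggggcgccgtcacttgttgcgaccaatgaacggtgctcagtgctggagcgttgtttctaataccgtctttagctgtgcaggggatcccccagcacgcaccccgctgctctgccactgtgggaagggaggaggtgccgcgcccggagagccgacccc
Slc16a10: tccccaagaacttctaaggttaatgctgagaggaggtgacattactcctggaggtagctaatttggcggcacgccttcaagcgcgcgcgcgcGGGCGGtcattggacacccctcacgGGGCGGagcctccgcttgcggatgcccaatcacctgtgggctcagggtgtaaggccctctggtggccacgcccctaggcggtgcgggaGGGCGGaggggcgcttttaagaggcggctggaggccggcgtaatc
Slc7a11: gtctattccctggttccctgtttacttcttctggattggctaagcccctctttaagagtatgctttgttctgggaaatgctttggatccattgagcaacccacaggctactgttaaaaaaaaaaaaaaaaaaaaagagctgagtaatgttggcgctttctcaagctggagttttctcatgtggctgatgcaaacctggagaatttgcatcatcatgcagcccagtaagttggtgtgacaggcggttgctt
Slc30a4: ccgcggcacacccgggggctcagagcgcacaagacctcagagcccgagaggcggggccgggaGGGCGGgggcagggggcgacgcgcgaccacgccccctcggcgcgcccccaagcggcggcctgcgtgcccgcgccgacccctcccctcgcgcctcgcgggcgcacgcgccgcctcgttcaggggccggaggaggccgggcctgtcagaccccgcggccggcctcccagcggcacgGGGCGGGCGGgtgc
Slc44a1: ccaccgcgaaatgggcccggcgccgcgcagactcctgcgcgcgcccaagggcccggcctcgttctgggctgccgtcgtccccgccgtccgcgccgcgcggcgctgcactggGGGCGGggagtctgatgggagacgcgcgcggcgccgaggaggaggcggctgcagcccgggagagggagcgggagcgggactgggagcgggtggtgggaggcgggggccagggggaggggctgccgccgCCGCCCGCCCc
Slc16a10, Slc30a4 and Slc44a1 each had 3 matches, Slc35d3 had 1 at the far end of the window, and Slc7a11 had 0 in a window of 43.2% GC. In Slc44a1 and Slc30a4 the nearest match began 7 and 10 bases before the start. Of 123 members with a promoter entry, 67.5% held a match, against 63.0% of the 8579 promoters of all genes at 5 CPM or more and 32.9% of all 27025 promoters. The share among the members was thus near that of expressed genes at large. The homeodomain core TAATTA was in 2.44%, 1.94% and 4.90% of the same sets. A match is a description of these letters and not a measured binding site.

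The levels of the members spanned a wide range. Per kilobase of exon, which allows genes to be compared, the WT mean ran from 0.355 to 406 CPM per kb with a median of 5.01. The 10 highest members held 52.7% of the summed per-kb level in WT and 54.6% in DKO, and 9 of these 10 were shared between the groups. The mitochondrial carriers Slc25a5 and Slc25a4, which exchange ADP for ATP across the inner membrane, came first with 406 and 253 CPM per kb in WT and 410 and 263 in DKO. Slc25a39, linked to glutathione import into mitochondria, followed with 126, then Slc39a7 (122), a zinc carrier of the endoplasmic reticulum, the glucose carrier Slc2a3 (122) and Slc35a4 (121). The order of these last 4 in WT is not resolved, since their values differ by less than the spread between libraries. Of the exons of Slc39a7, 2084 of 2584 bases are shared with the predicted gene Gm20427, so its counts depend on how shared reads were assigned.

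**Figure D1:**
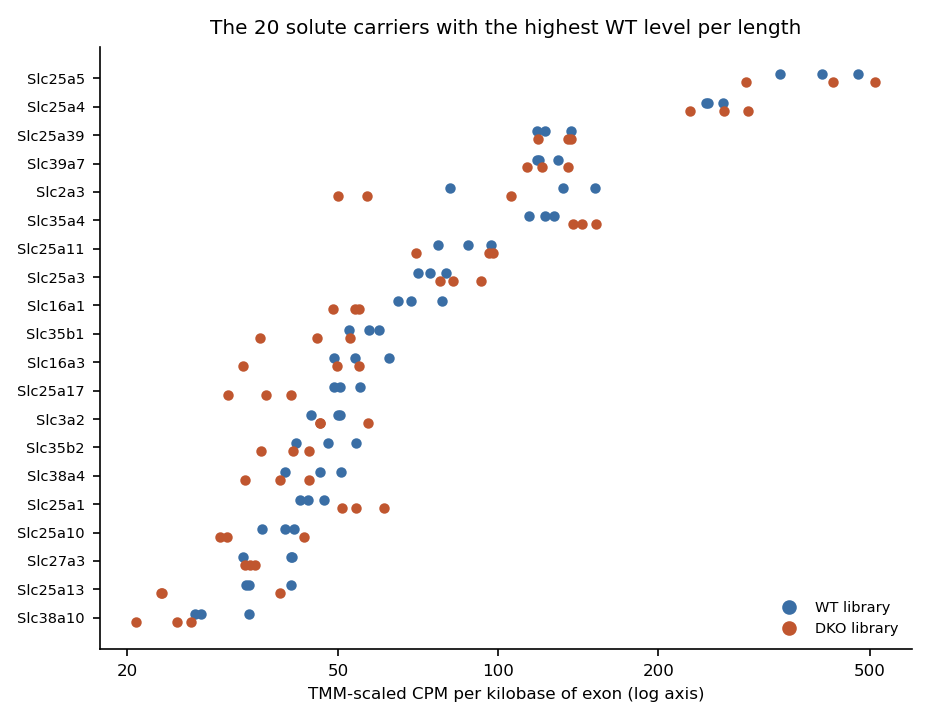
Levels of the 20 solute carriers with the highest WT mean, in CPM per kb of exon on a log axis, with 1 point per library in each group. Slc25a5 and Slc25a4 lead in both groups, and Slc2a3 has the widest spread between libraries of the leading members.

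On the plain CPM scale, 24 members reached 100 CPM and 134 reached 10 CPM in WT. The members summed to 10083, 10086 and 10481 CPM in WT 32, WT 53 and WT 56 and to 9408, 9116 and 9513 CPM in DKO 17, DKO 40 and DKO 41. That was 0.992% to 1.05% of all counts in WT and 0.916% to 0.986% in DKO. The sum was lower in each DKO library than in each WT library, and Slc2a3 was the largest single part of that gap, with group means of 882 and 512 CPM. The coefficient of variation between libraries had a median of 12.8% in WT and 17.7% in DKO, and it was above 30% for 16 members in WT and 42 in DKO. DKO 41 had the highest of the 3 DKO values for 89 of the 166 members.

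The level threshold itself defined who is a member. The members nearest to it were Slc7a4 (5.10 CPM in the higher group), Slc2a12 (5.25) and Slc18b1 (5.38), and the nearest genes left out were Slc44a3 (4.56), the zinc carrier Slc39a8 (4.49) and Slc37a2 (4.43). In 153 members both group means reached 5 CPM. A further 10 entered through WT alone and 3 through DKO alone, and for these 13 the rule itself favoured a difference between the groups, so their values are given as a description.

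Most solute carriers had similar levels in DKO and WT ectoderm, and those that changed were few and mostly lower in DKO. Among all 19126 genes tested with edgeR's quasi-likelihood test, 4.51% passed at an adjusted p under 0.05 (2.81% lower and 1.7% higher in DKO). Among the 11311 tested genes at 5 CPM or more in either group it was 5.9% (3.89% lower and 2.01% higher), and of the 166 solute carriers 12 passed (7.23%), 11 of them lower. Among the 10527 genes at 5 CPM or more in both groups the share was 4.27% (2.72% lower and 1.56% higher). Of the 153 solute carriers at that level, 5 passed (3.27%). These were Slc7a11, Slc30a4, Slc40a1 and Slc44a1, which fell, and Slc7a5, which rose. That share is near the background, so in this edgeR fit the solute carriers as a set were not called more often than other genes. Of the 10 that entered through WT alone, 7 passed in the same fit, where 39.8% of all 387 such genes did. These were Slc35d3, Slc16a10, Slc39a14, Slc16a12, Slc27a6, Slc16a7 and Slc16a6. Of the 3 that entered through DKO alone, 0 passed in edgeR, where 15.9% of such genes did, while 2 of the 3 had an unadjusted p under 0.05 and 1, Slc38a3, passed in DESeq2. For the members that entered through 1 group alone the rule used the same difference, so these passes are a description.

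The log2 fold change, DKO minus WT, had a median of -0.08 over the 166 members, -0.05 over the 153 and -0.01 over all genes at that level. It was within 0.5 of 0 for 125 members (75.3%) and beyond 1 for 13. Over the 11311 genes at 5 CPM or more, 82.4% were within 0.5 of 0 and 731 were beyond 1. Of the 153 members, 80.4% were within 0.5 of 0, against 86.7% of all genes at 5 CPM or more in both groups. The median standard error (SE) of a member's log2 fold change was 0.20. The smallest change that passed was that of Slc44a1 (-0.73), while Slc16a1 at -0.43 did not pass. Without regard to the test, the 3 DKO values were all below the 3 WT values for 36 members (21.7%) and all above for 18 (10.8%). Over all genes at 5 CPM or more the shares were 14.3% and 11.5%, and over all genes tested 11.3% and 10.6%. At an unadjusted p under 0.05 there were 30 lower members (18.1%) and 17 higher (10.2%), against 11.9% and 9.57% of all genes at 5 CPM or more. Among the 153 members at that level in both groups, the 3 DKO values were all below the 3 WT values for 28 (18.3%, against 12.9% of all such genes). They were all above for 15 (9.8%, against 10.8%). In 20 of the 36 lower members DKO 41 lay nearest to WT, in 13 DKO 17 and in 3 DKO 40.

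**Figure D2:**
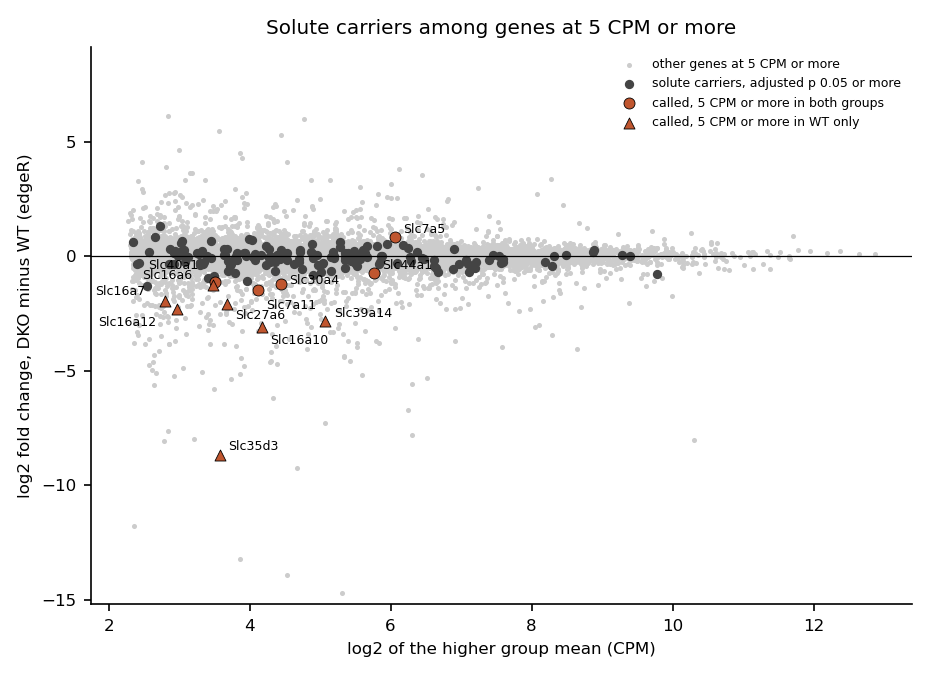
Log2 fold change (DKO minus WT, edgeR) against log2 of the higher group mean in CPM for genes at 5 CPM or more (grey) and the 166 solute carriers (black, or orange where called). The 12 called members are labelled, and 11 of them lie below 0.

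Amino acid carriers were the second largest class, with 27 members, and 1 of them rose and 1 fell. Slc7a5 is the light chain of the large neutral amino acid exchanger that brings in leucine and other essential amino acids. Its level was 42.1, 38.2 and 33.6 CPM in WT 32, WT 53 and WT 56 and 71.1, 60.5 and 69.2 CPM in DKO 17, DKO 40 and DKO 41. Each DKO library was above each WT library, and the mean rose from 38.0 ± 4.27 to 67.0 ± 5.65 CPM (SD, n = 3 each). That is a 1.76-fold rise, with a log2 fold change of 0.82 (SE 0.14, edgeR adjusted p = 0.0139). Slc7a5 is at GRCm38 chromosome 8, 121881150 to 121907694. It needs the heavy chain Slc3a2 to reach the cell surface, and Slc3a2, the highest amino acid carrier gene per kb (48.2 CPM per kb in WT), was at 157, 177 and 176 CPM in WT and 201, 163 and 163 in DKO. The groups overlapped for Slc3a2, and its log2 fold change was 0.05 (SE 0.12, adjusted p = 0.892).

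Slc7a11, the other called gene of the class, exchanges extracellular cystine for glutamate and also pairs with the Slc3a2 heavy chain. Its WT values were 16.96, 17.02 and 17.95 CPM, and its DKO values 8.94, 5.30 and 4.59 CPM. The WT libraries were close together, and the DKO values were all below them. The mean fell 2.76-fold, from 17.3 ± 0.558 to 6.28 ± 2.33 CPM (log2 fold change -1.47, SE 0.26, edgeR adjusted p = 0.0156). The gene lies at chromosome 3, 49892526 to 50443614. So the 2 called partners of Slc3a2 moved in opposite directions while Slc3a2 itself did not pass.

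Among the glutamine and neutral amino acid carriers, Slc38a2, which adapts amino acid uptake to supply, averaged 168 ± 14.2 and 152 ± 2.80 CPM in WT and DKO, and Slc1a5, a glutamine exchanger, averaged 50.7 ± 11.2 and 50.1 ± 6.50. Neither passed (adjusted p = 0.535 and 0.968). Slc38a3, a glutamine carrier, entered through DKO alone with 2.99, 1.69 and 3.13 CPM in WT and 4.88, 8.87 and 6.23 in DKO, the largest positive log2 fold change of any member (1.31, SE 0.34). In all, 7 of the 27 had every DKO value above every WT value and 4 every one below, where 11.5% and 14.3% of all genes at 5 CPM or more did. Slc38a3 and Slc7a4, which entered through DKO alone, are among the 7, and for these the rule favoured such a difference. The median log2 fold change of the class was 0.12, and 0.11 over the 25 members at 5 CPM or more in both groups. Among those higher was the taurine carrier Slc6a6, chosen after its values were seen, with 38.1 to 46.7 CPM in WT and 59.3 to 66.9 CPM in DKO (log2 fold change 0.52, adjusted p = 0.0686). DESeq2 called Slc6a6 (adjusted p = 0.00401) and Slc6a17 (0.014) higher. It also called Slc38a3 higher, which is a description, since the rule favoured that difference. The assignment of Slc66a2 to this class is uncertain.

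The class of monocarboxylates held 8 members, and 4 of them were called lower, all 4 of which entered through WT alone. Its members carry lactate, pyruvate, ketone bodies or related molecules, and some carry aromatic amino acids, creatine or thyroid hormone. The median log2 fold change was -0.84 over the 8 and -0.30 over the 4 at 5 CPM or more in both groups. Slc16a13, chosen after its values were seen, went the other way. It was at 20.4, 19.8 and 21.6 CPM in WT and 22.1, 34.4 and 32.3 in DKO. Its log2 fold change was 0.52 and did not pass (edgeR adjusted p = 0.194). Slc16a10, which carries aromatic amino acids, was at 15.6, 18.5 and 20.1 CPM in WT and 2.62, 1.57 and 2.12 CPM in DKO. No DKO library came near the lowest WT value, and the means differed 8.62-fold (18.1 ± 2.29 against 2.10 ± 0.524 CPM). Its log2 fold change was -3.10 (SE 0.26), at chromosome 10, 40033532 to 40142258. Slc16a12, a creatine carrier, was at 7.58, 8.67 and 7.37 CPM in WT and 1.22, 0.496 and 2.85 in DKO, or 5.17-fold lower. Slc16a7, a high-affinity pyruvate and lactate carrier, was at 6.63, 7.14 and 7.22 CPM in WT and 2.15, 0.784 and 2.39 in DKO, or 3.95-fold lower. These values are a description, since the rule favoured a difference. Slc16a6 was at 13.0, 9.19 and 11.3 CPM in WT and 4.51, 5.79 and 3.999 in DKO, 2.34-fold lower. Of the 4883 exon bases of Slc16a6, 1149 overlap other genes, among them Amz2 and Arsg on the other strand, and these libraries do not mark strand.

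The main lactate carriers of the class were abundant. Slc16a1 was at 304, 347 and 287 CPM in WT and 241, 216 and 238 CPM in DKO. The groups did not overlap, with means of 313 ± 30.9 and 232 ± 13.9 CPM, but the log2 fold change was -0.43 (SE 0.11) and the edgeR adjusted p of 0.0695 missed the threshold. It passed in DESeq2 (adjusted p = 0.00676). Slc16a3, the lactate exporter of glycolytic cells, was at 261, 286 and 331 CPM in WT and 264, 291 and 176 in DKO, with overlapping groups (log2 fold change -0.27, adjusted p = 0.514). Per kb the level of Slc16a1 in WT was 70.6 CPM and that of Slc16a10 was 2.46 CPM. The called members of the class were thus the low ones, and the 2 high ones did not pass.

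**Figure D3:**
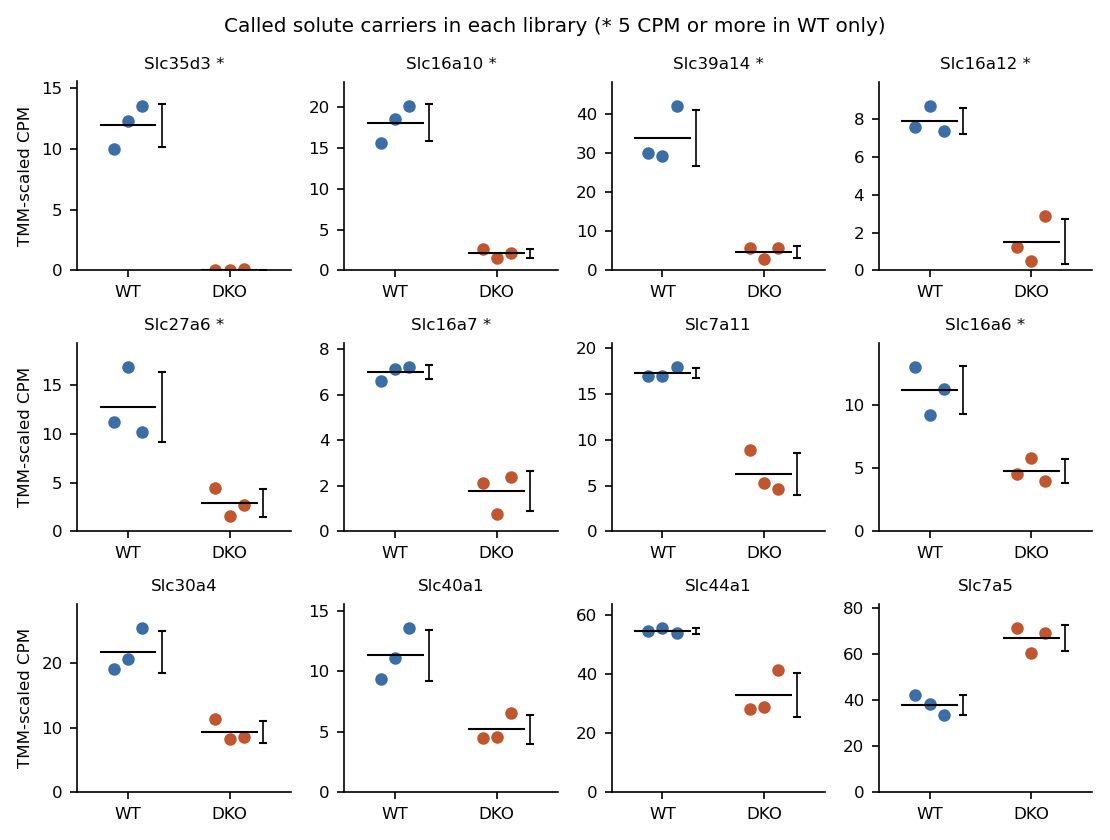
CPM of each of the 12 called solute carriers in the 3 WT and the 3 DKO libraries, with a horizontal line for the group mean and a whisker for the SD. In every panel the 3 DKO values lie on 1 side of the 3 WT values.

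Zinc carriers of the families Slc30, which moves zinc out of the cytosol, and Slc39, which moves it in, made up 14 members, with 2 called lower and 0 higher. Slc39a14, a plasma membrane importer of zinc that also takes up iron and manganese, was at 29.9, 29.3 and 41.9 CPM in WT and 5.70, 2.94 and 5.59 in DKO. The means were 33.7 ± 7.10 and 4.74 ± 1.56 CPM, a 7.11-fold difference with a log2 fold change of -2.82 (SE 0.27). It entered through WT alone and lies at chromosome 14, 70303469 to 70351425. Slc30a4, which loads zinc into vesicles, fell in the test. It was at 19.1, 20.6 and 25.4 CPM in WT and 11.3, 8.22 and 8.58 in DKO, and its mean fell 2.31-fold, from 21.7 ± 3.28 to 9.38 ± 1.71 CPM (log2 fold change -1.21, SE 0.21, edgeR adjusted p = 0.0148). Slc30a4 is at chromosome 2, 122681233 to 122702663, and 130 of its exon bases overlap an unnamed transcript on the other strand.

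In addition, 4 zinc carriers had all 3 DKO values below all 3 WT values without passing. Of the 14, 6 were separate and lower and 0 separate and higher, against 14.3% and 11.5% of all genes at 5 CPM or more, and the class median was -0.27. Slc39a14, which entered through WT alone, is 1 of the 6. The largest of the uncalled differences was in the importer Slc39a10, chosen after its values were seen, with 85.0 to 118 CPM in WT and 48.7 to 73.6 CPM in DKO (log2 fold change -0.70, SE 0.18, adjusted p = 0.0678). DESeq2 called Slc39a10 (adjusted p = 0.0158) and Slc39a6 (0.0103) lower. The highest member, Slc39a7, did not differ beyond its spread (316 ± 16.3 and 318 ± 28.9 CPM, adjusted p = 0.974). Of the 8 Slc39 members, Slc39a14 included, 5 had a log2 fold change below 0 (median -0.36), as had 4 of the 6 Slc30 members (median -0.27).

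Iron, copper and magnesium had 5 carriers, and 1 of these fell. Slc40a1 encodes ferroportin, the iron exporter. It was at 9.38, 11.1 and 13.6 CPM in WT and 4.48, 4.60 and 6.59 in DKO, so the groups did not overlap. The mean fell 2.17-fold, from 11.4 ± 2.11 to 5.22 ± 1.18 CPM (log2 fold change -1.11, SE 0.26, edgeR adjusted p = 0.0451), at chromosome 1, 45908068 to 45926523. The copper importer Slc31a1 had the highest level per kb of the class and did not pass (89.2 ± 4.40 and 81.3 ± 7.80 CPM, adjusted p = 0.639). Red cells also express Slc40a1. Its highest DKO value of 6.59 CPM was in DKO 41, which had 920 CPM of red cell markers, and its lowest WT value of 9.38 CPM in WT 32, which had 0.590. The part of red cells in its level was not tested.

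The class of lipids, choline and related molecules held 9 members, 2 of them called lower. Slc44a1, a choline carrier, was at 54.3, 55.4 and 53.6 CPM in WT and 28.2, 28.7 and 41.4 in DKO. The WT libraries lay within a few CPM of each other, and DKO 41 stood above the other DKO libraries. The mean fell 1.66-fold, from 54.4 ± 0.904 to 32.8 ± 7.48 CPM (log2 fold change -0.73, SE 0.17, edgeR adjusted p = 0.0481). Its gene is at chromosome 4, 53440413 to 53622478, with 310 exon bases shared with an unnamed transcript on the other strand. Slc27a6, a fatty acid carrier, entered through WT alone with 11.2, 16.9 and 10.2 CPM in WT and 4.45, 1.55 and 2.76 in DKO, 4.37-fold lower (log2 fold change -2.09, SE 0.36). The choline carrier Slc44a2, chosen after its values were seen, was at 131, 130 and 154 CPM in WT and 63.6, 73.0 and 123 in DKO. It did not pass (log2 fold change -0.68, adjusted p = 0.146), but with DKO 41 left out its log2 fold change was -1.03 and its adjusted p 0.00992. Slc27a3 was the highest member per kb and did not pass (98.2 ± 11.6 and 87.6 ± 1.94 CPM).

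Slc35d3 gave the largest difference of any member. Its family carries nucleotide sugars into the Golgi and related compartments, and this member is known in mice for its role in platelet dense granules. It was at 10.01, 12.2 and 13.5 CPM in WT, at 0 counts in DKO 17 and DKO 40, and at 7 counts (0.0784 CPM) in DKO 41. The means were 11.9 ± 1.77 and 0.0261 ± 0.0453 CPM, 456-fold lower (log2 fold change -8.65, SE 0.62). Without DKO 41, where the group had 0 counts, it was at least 642-fold lower against a floor of 3 counts over the remaining DKO libraries. The floor covers counting error only, since these libraries hold no molecular identifiers. Slc35d3 entered through WT alone and lies at chromosome 10, 19847916 to 19851459, with no exon overlap. In rank of level per kb it went from 87 in WT to 166, the last, in DKO. No other member of the family passed in edgeR, and the largest rise among them had a log2 fold change of 0.68. DESeq2 called Slc35b3 and Slc35e4 higher. At an unadjusted p under 0.05, 3 of the 21 members were higher, against 9.57% of all genes at 5 CPM or more. Slc35a4, the highest of the family, was at 375, 401 and 416 CPM in WT and 453, 471 and 500 in DKO, separate and higher. Its log2 fold change was 0.26 (adjusted p = 0.203).

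Sugar carriers held 11 members and 0 calls in edgeR. At an unadjusted p under 0.05, 3 were lower and 0 higher, against 11.9% and 9.57% of all genes at 5 CPM or more. In DESeq2 Slc45a3 and Slc45a4 passed, lower in DKO. Slc2a3 is a high-affinity glucose carrier and the most abundant sugar carrier of the set. It was at 959.9, 587 and 1099.7 CPM in WT and 409, 361 and 765 in DKO. WT 53 lay below DKO 41, so the groups overlapped. The difference did not pass, with a log2 fold change of -0.79 and an SE of 0.31 (edgeR adjusted p = 0.22). Without DKO 41 it was -1.20 and passed (adjusted p = 0.0412), and without WT 53 it was -1.01 and did not (0.128). Slc45a3 had the largest change of the class, with 13.0, 16.1 and 17.6 CPM in WT and 5.66, 4.66 and 11.5 in DKO (log2 fold change -1.07, SE 0.32, adjusted p = 0.105). It passed without DKO 41 (-1.59, adjusted p = 0.0181). For Slc2a3, Slc45a3, Slc44a1 and Slc44a2, DKO 41 was the highest DKO library, as it was for Krt5 (64.9 CPM, against 12.7 and 8.09) and for red cell markers. The part of these in the results was not tested. DKO 41 was also the highest DKO library for the 13 ectoderm markers together, with sums of 2569, 2259 and 3103 CPM in DKO 17, DKO 40 and DKO 41. It was the highest DKO library for Cdh1 (125, 95.5 and 179 CPM in the same order) and Perp (244, 208 and 368). The same held for Trp63, Grhl3, Krt14, Krt18, Esrp1 and Wnt6. Epcam (439, 383 and 437 CPM), Krt8 (448, 493 and 494) and Tfap2a did not set DKO 41 apart. Among the DKO libraries Tfap2c was highest in DKO 17.

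**Figure D4:**
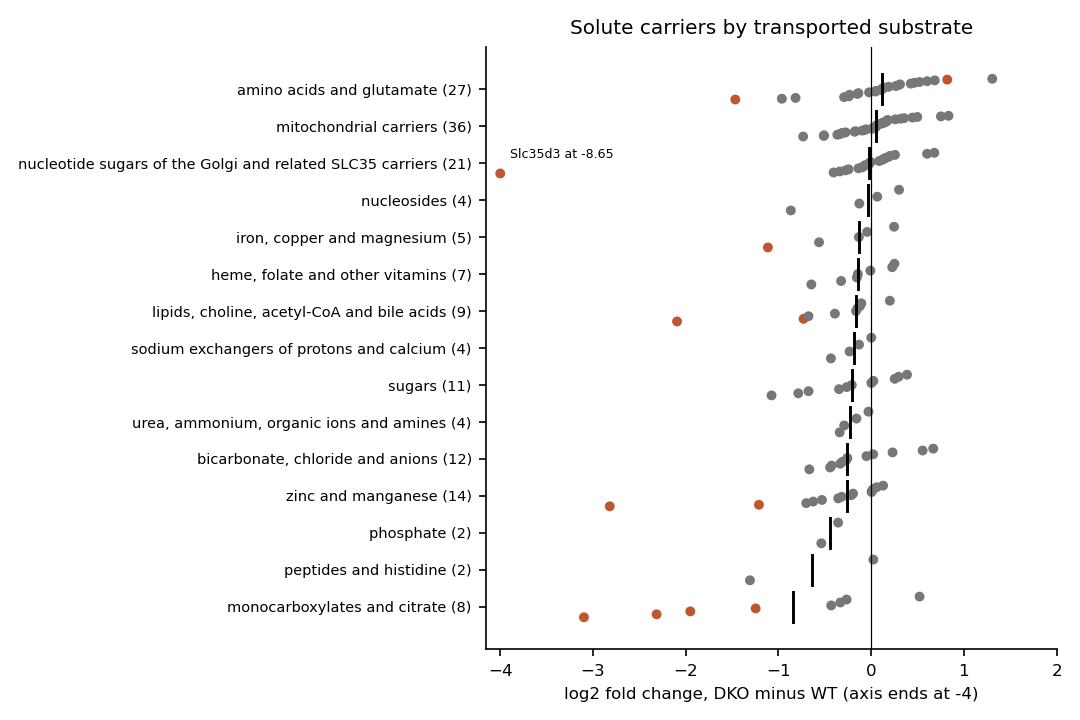
Log2 fold change (DKO minus WT) of each solute carrier by transport class, with called members in orange and a black bar at each class median. Slc35d3 is drawn at the edge of the axis with its value, -8.65, and 4 of the 8 monocarboxylate members (median -0.84) entered through WT alone. Over the 4 monocarboxylate members at 5 CPM or more in both groups the median was -0.30.

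The mitochondrial carriers were the largest class, and 0 of the 36 passed in edgeR. In DESeq2 Slc25a17 passed as lower and Slc25a23 as higher. At an unadjusted p under 0.05, 2 of the 36 were lower and 6 higher, against 11.9% and 9.57% of all genes at 5 CPM or more. The log2 fold changes of the class ran from -0.73 to 0.83 with a median of 0.05, and 31 of 36 were within 0.5 of 0. Slc25a5 was at 669, 780 and 556 CPM in WT and 841, 701 and 481 in DKO, with a difference far smaller than the spread (log2 fold change 0.01, SE 0.20). Slc25a38, which brings glycine into mitochondria for heme synthesis, was at 48.8, 51.7 and 52.7 CPM in WT and 79.9, 81.8 and 54.9 in DKO. DKO 41 held the lowest of the DKO values and the most red cell markers. Its log2 fold change was 0.50 (adjusted p = 0.148), and 0.65 without DKO 41, where it passed (adjusted p = 0.0283). The mitochondrial iron importer Slc25a37 was at 6.99 ± 1.02 and 7.58 ± 3.36 CPM (adjusted p = 0.899), and the red cell anion exchanger Slc4a1, not a member, was at 1.41 CPM or less in every library. Slc25a30, the largest difference of the class, entered through DKO alone with 3.18, 4.17 and 3.35 CPM in WT and 8.32, 6.19 and 4.40 in DKO. Slc25a17, which serves peroxisomes and was chosen after its values were seen, had 140 to 156 CPM in WT and 88.1 to 116 CPM in DKO (log2 fold change -0.51, adjusted p = 0.0639).

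Of the 35 members in the remaining 7 classes 0 passed in edgeR, and DESeq2 called Slc12a2, Slc20a2 and Slc29a1 lower. At an unadjusted p under 0.05, 5 of the 35 were lower and 1 higher, against 11.9% and 9.57% of all genes at 5 CPM or more. Slc12a2, which brings sodium, potassium and chloride into cells, was at 23.6, 17.8 and 20.3 CPM in WT and 13.5, 11.6 and 13.9 in DKO (log2 fold change -0.67, SE 0.19, adjusted p = 0.0848). Phosphate uptake rests on 2 members, of which Slc20a2 was at 110, 126 and 119 CPM in WT and 96.0, 68.5 and 80.0 in DKO (log2 fold change -0.54, adjusted p = 0.075). Slc20a1 overlapped between the groups (32.7 ± 5.47 and 25.6 ± 5.99 CPM). The nucleoside carrier Slc29a1 was at 10.3, 12.5 and 11.1 CPM in WT and 8.62, 5.11 and 4.81 in DKO (log2 fold change -0.87, adjusted p = 0.114). In each of these genes the groups did not overlap, apart from Slc20a1, while the differences stayed above the adjusted threshold. The peptide carrier Slc15a2 entered through WT alone with 5.35, 5.30 and 6.92 CPM in WT and 2.93, 0.170 and 3.82 in DKO (log2 fold change -1.31, SE 0.53). The vitamin and heme class had 7 members with 0 separate in either direction, its largest change being in the vitamin C carrier Slc23a2 (log2 fold change -0.65, adjusted p = 0.3). The chloride and anion class had 12 members. Slc12a4, a potassium and chloride exporter and the highest of them per kb, was at 98.1 ± 12.5 and 72.9 ± 13.0 CPM (adjusted p = 0.196), and Slc26a10 had the largest change (log2 fold change 0.67, adjusted p = 0.253). The organic ion class member Slc22a17 had a log2 fold change of -0.34 (adjusted p = 0.608).

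The calls differed in how far they rested on single libraries. With each of the 6 libraries left out in turn, Slc35d3, Slc16a10 and Slc39a14 passed in 6 of 6 fits, with log2 fold changes for Slc16a10 between -3.28 and -2.94 and for Slc39a14 between -2.96 and -2.58. These 3 entered through WT alone, so that count is a description. The rise of Slc7a5 was lost without WT 32 (adjusted p = 0.0518) or WT 56 (0.0865). The fall of Slc30a4 was lost without WT 56 (0.0868) or DKO 40 (0.081), and that of Slc7a11 without WT 32 (0.0717), WT 56 (0.0824) or DKO 40 (0.0886). Slc40a1 and Slc44a1 passed only without DKO 41 (adjusted p = 0.0384 and 0.0114), and their adjusted p otherwise rose as high as 0.205 and 0.199. Among the others that entered through WT alone, Slc16a12 passed only without DKO 41 (log2 fold change -3.17, and as small as -1.93 without DKO 40) and Slc16a6 only without WT 53 (-1.35). Slc16a7 was lost without WT 32 (-2.02) or WT 56 (-1.93), and Slc27a6 without WT 32 (-2.20) or DKO 40 (-1.81). Of the 153 members, 0 passed without WT 56, 1 without WT 32 or DKO 40, 3 without WT 53, 8 without DKO 17 and 12 without DKO 41. Over all genes tested the calls went from 863 to between 247 and 918 in the same fits. Without both WT 32 and DKO 41, Slc44a1 passed, as did Slc35d3, Slc16a10, Slc39a14 and Slc16a12 of those that entered through WT alone. Every one of the 12 kept its direction in each of these fits. All 12 were called from these same libraries, and for those that entered through WT alone the rule favoured that direction. The kept direction is therefore a description.

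**Figure D5:**
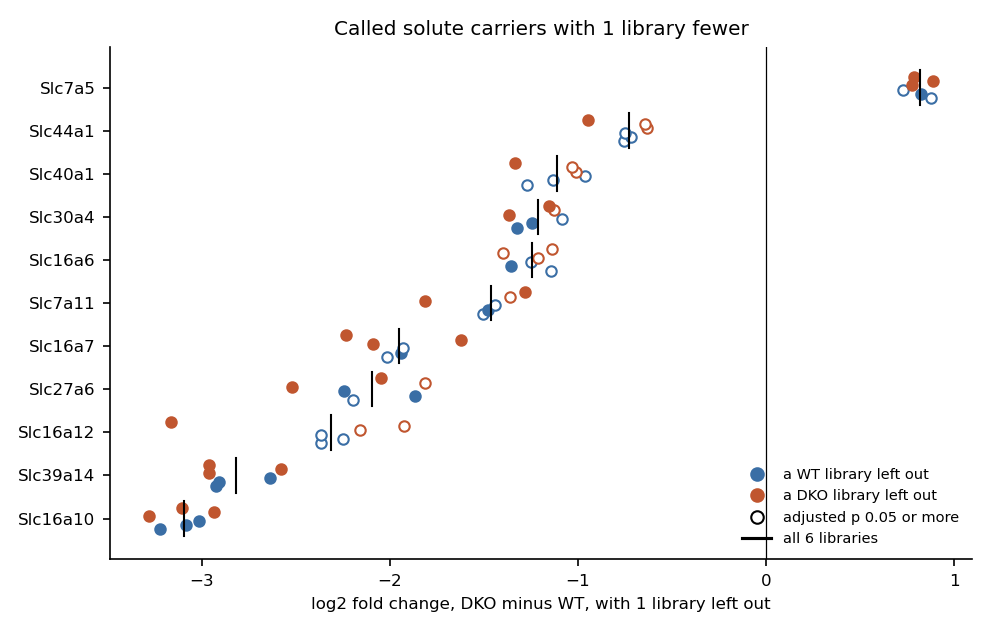
Log2 fold change of 11 called solute carriers with all 6 libraries and with each library left out, DKO minus WT, filled where the fit passed and open where it did not, and a bar for the fit with all libraries. Slc35d3 is left out because DKO without DKO 41 has 0 counts, and each gene drawn stays on its own side of 0. The genes were called from these same libraries, so that is a description.

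Carriers outside the Slc naming and partner proteins were compared through a list of 38 genes, 36 of them tested. In this list 1 gene was lower and 0 were higher in DKO, where 2.81% and 1.7% of all genes tested were. The median log2 fold change of the list was 0.05. The gene that fell was Ucp2, a mitochondrial carrier of the same fold as Slc25, at 364, 360 and 401 CPM in WT and 220, 188 and 267 in DKO. Its mean fell from 375 ± 22.3 to 225 ± 39.8 CPM (log2 fold change -0.73, SE 0.14, edgeR adjusted p = 0.0207), and the call was kept without DKO 41 (adjusted p = 0.0103) and lost without any other library (between 0.0515 and 0.103). Bsg, the chaperone that the lactate carriers Slc16a1 and Slc16a3 need at the cell surface, averaged 1137 ± 138 and 870 ± 63.0 CPM in WT and DKO and did not pass (log2 fold change -0.39, adjusted p = 0.103). For Bsg, as for Slc16a1, the groups did not overlap.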

How the data were processed

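RNA of peeled forelimb-bud ectoderm was read with SMART-Seq v4 and Nextera XT libraries, per the labels' protocols; that chemistry marks no strand and carries no molecular identifiers. The authors deposited raw counts per gene for 55401 genes in 6 columns, 3 DKO and 3 WT, taken as the E9.75 groups. HISAT2, StringTie, Cufflinks, DESeq2, fastp and FastQC and the builds GRCm38 and mm10 are named per the submitters' processing notes; which step wrote the counts is not given in the sources used here. Gene models are GENCODE M21 (GRCm38), in which 51 of the 166 members share exon bases with another gene.

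Levels are TMM-scaled CPM, given as mean ± SD. Changes were tested with edgeR 4.0.16 in R 4.3.3 (filterByExpr, TMM, robust glmQLFit with legacy=FALSE, which is not this version's default, quasi-likelihood F test), p-values adjusted by Benjamini-Hochberg over the 19126 tested genes, and the script was tested on simulated data. Called means an adjusted p under 0.05. DESeq2 1.42.0 was an alternative. For members that entered through 1 group alone, the rule used the difference, so no adjusted p is given from the edgeR fit with all libraries.

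Named are the called members, the highest and most changed of each transport class, those next to the threshold and a fixed set of carriers of iron, lactate, glucose and amino acids. Promoters on chromosome 18 were not shown, and a few genes that this rule names are not reported here. The members, classes, marker lists and tests were chosen with earlier results of these data known.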

Additional observations from a re-analysis of the deposited data

How the results depend on the processing

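Of the 12 called solute carriers, 11 lower and 1 higher, the counts were the same with RLE size factors and without robust estimation. They were 7 lower without the filter on low counts or with legacy=TRUE, and 20 lower and 7 higher with DESeq2, which held all 12. Over all genes DESeq2 called 1738 of 29852. Of the 153 members at 5 CPM or more in both groups it called 19, 13 lower and 6 higher. The DESeq2 share over all genes at that level was not computed. Leaving out each library gave 4 to 16 lower and 0 to 2 higher, and leaving out both WT 32 and DKO 41 gave 7 lower and 0 higher. The median log2 fold change of -0.08 was -0.16 without both and between -0.13 and -0.06 with 1 library left out. The cause was not tested. Of the non-Slc transport genes, 1 was called, 0 without the filter, 4 with DESeq2 and 0 to 2 with 1 library left out. The rule gave 138 members at 10 CPM, 199 at 2 CPM and 165 to 168 with 1 library left out. Of 52 members followed one by one, 9 changed sign under some alternative, 0 of them called. The called members were picked for their difference in the same libraries, so their kept sign is a description. With 1 library left out, the log2 fold change ran from -0.015 to 0.063 for Slc15a4, -0.16 to 0.15 for Slc1a5, -0.13 to 0.43 for Slc25a37, -0.017 to 0.11 for Slc25a39, -0.030 to 0.14 for Slc25a4, -0.18 to 0.20 for Slc25a5, -0.063 to 0.059 for Slc39a7, -0.061 to 0.098 for Slc3a2 and -0.046 to 0.47 for Slc48a1. Without both WT 32 and DKO 41 it was 0.012 for Slc1a5, -0.15 for Slc25a37, -0.050 for Slc25a39 and -0.051 for Slc48a1. For Slc39a7 it was -0.0041 without the filter and -0.00045 with DESeq2. No paired analysis was possible because the numbers in the column names are not the replicate numbers given in the labels.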

Other observations

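Among the 84 solute carriers below 5 CPM that were tested, 5 passed in edgeR, 2 lower and 3 higher in DKO. Over all genes tested, at any level, 2.81% passed as lower and 1.7% as higher. The share over all tested genes below 5 CPM was not computed. The genes named here were chosen after their values were seen. Slc41a2, a magnesium carrier, was at 2.09, 1.83 and 2.80 CPM in WT 32, WT 53 and WT 56 and at 0 counts in the DKO libraries (adjusted p = 0.00792). The noradrenaline carrier Slc6a2 was at 3.77, 1.80 and 7.19 CPM in WT and 0.456, 0 and 0.476 CPM in DKO (adjusted p = 0.0241). The choline carrier Slc44a4 was at 0, 0 and 0.299 CPM in WT and 0.701, 1.30 and 2.22 CPM in DKO (adjusted p = 0.0456). Slc15a3 had 0 counts in WT and 0.713, 0.737 and 0.371 CPM in DKO (adjusted p = 0.0377).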
